A study of Saccharomyces cerevisiae with 12 samples.

Results

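The comparison described here asks, gene by gene, whether budding yeast without the kinase Slt2 answered arsenate differently from wild-type yeast. It is the log2 change with arsenate in slt2-deficient cells minus the log2 change with arsenate in wild-type cells, called the difference of arsenate effects below, and a positive value means a higher change in slt2. It used all 12 of the 12 arrays of the series and covered 5449 genes. The 4 groups held 3 arrays each and came from BY4741, a haploid laboratory strain whose cells are of the a mating type and lack LEU2, URA3 and MET17, in exponential growth in the rich medium YEPD. They were slt2-deficient cells with 100 µM sodium arsenate for 2 h, slt2-deficient cells untreated at 0 h, wild-type cells with the same arsenate treatment, and wild-type cells untreated at 0 h. The sources used here do not say how SLT2 was removed or whether 1 clone or several were used. Arsenate cells had 2 h more in culture, with no untreated counterpart of that age among the samples, so arsenate and culture time cannot be told apart in the effect of either genotype. The submitters call the replicates independent without naming separate cultures, so p-values reflect the spread among these arrays, and that spread may be technical.

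Slt2 is the last kinase of the cell wall integrity cascade. Sensors in the plasma membrane act through the exchange factors Rom1 and Rom2 on the GTPase Rho1, and from there through Pkc1, Bck1 and the paired kinases Mkk1 and Mkk2. Active Slt2 turns on the transcription factor Rlm1 and the Swi4 and Swi6 complex, which raise genes for wall proteins, wall enzymes and the G1 to S transition. Arsenate resembles phosphate and enters through phosphate transporters such as Pho84. Inside the cell Arr2 reduces it to arsenite, which Arr3 pumps out and Ycf1 moves into the vacuole bound to glutathione, and Arr1 is the transcription factor that switches on ARR2 and ARR3.

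SLT2 checked the genotype labels, with signals of 5.22 to 5.81 (log2) on the 6 slt2 arrays and 10.66 to 11.01 on the 6 wild-type arrays. The strain's deleted genes LEU2, URA3 and MET17 read 3.74 to 5.47, and 5293 of the 5449 genes had a mean above 5.47. The spread within groups was unequal: the median SD over genes was 0.069 in slt2 arsenate, 0.085 in slt2 untreated, 0.493 in wild-type arsenate and 0.210 in wild-type untreated arrays. Replicates of an slt2 group correlated at 0.996 to 0.998 across genes, whereas wild-type arsenate array 1 correlated at 0.621 to 0.779 with the other 11 arrays. As a measure of RNA quality, 3′ probe sets of 7 control transcripts exceeded their 5′ probe sets on average by 1.79 on wild-type arsenate array 2 and 1.59 on wild-type untreated array 2, and 0.92 to 1.18 on the other 10 arrays. Differences and list medians below are therefore also given without wild-type arsenate arrays 1 and 2 and wild-type untreated array 2, called the 3 wild-type arrays, and the fit without them is called the reduced fit. That leaves 1 wild-type arsenate array, which is assumed to vary like the other groups. This array 3 correlated at 0.672 and 0.949 with its replicates, and at up to 0.993 with an array of another group. Whether arrays 1 and 2 or array 3 are typical of the treatment was not tested, so the reduced fit is not a corrected wild type. The part of RNA quality in the differences was not tested beyond a fit with it as a covariate.

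No gene passed the test of the difference. With limma and Benjamini-Hochberg adjustment over the 5449 genes, 0 (0%) were higher and 0 (0%) lower in slt2 at an adjusted p under 0.05, and the smallest adjusted p was 0.711. Before adjustment 28 genes (0.514%) had a p under 0.05, of which 14 were higher (0.257%) and 14 lower (0.257%). That share is far below the rate of 0.05 that a test gives on average where no gene differs, so the 28 are no excess. The data did not fix most differences closely: the median SE of a difference was 0.334 log2 units and the median half-width of its 95% interval was 0.745. In size, 294 genes (5.39%) had a difference of at least 1 log2 unit upward and 264 (4.84%) at least 1 downward.

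These large differences came mostly with a small change in slt2 and a large mean change in wild type. The slt2 effect was under 0.5 in size for 282 of the 294 and for 228 of the 264. Over all genes, the wild-type effect was larger in size than the slt2 effect for 4699 of 5449 (86.2%). Arsenate went with a mean change of at least 1 upward for 25 genes in slt2 and 363 in wild type, and of at least 1 downward for 2 genes in slt2 and 282 in wild type. Without the 3 wild-type arrays, 6 of the 294 and 4 of the 264 kept a difference of at least 1 in the same direction. Leaving out wild-type arsenate array 1 alone, 11 of the 294 and 43 of the 264 kept it. The 294 and 264 were picked on means that held the arrays left out. Part of this loss was therefore fixed by the choice, and it is not an independent check.

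**Figure D1:**
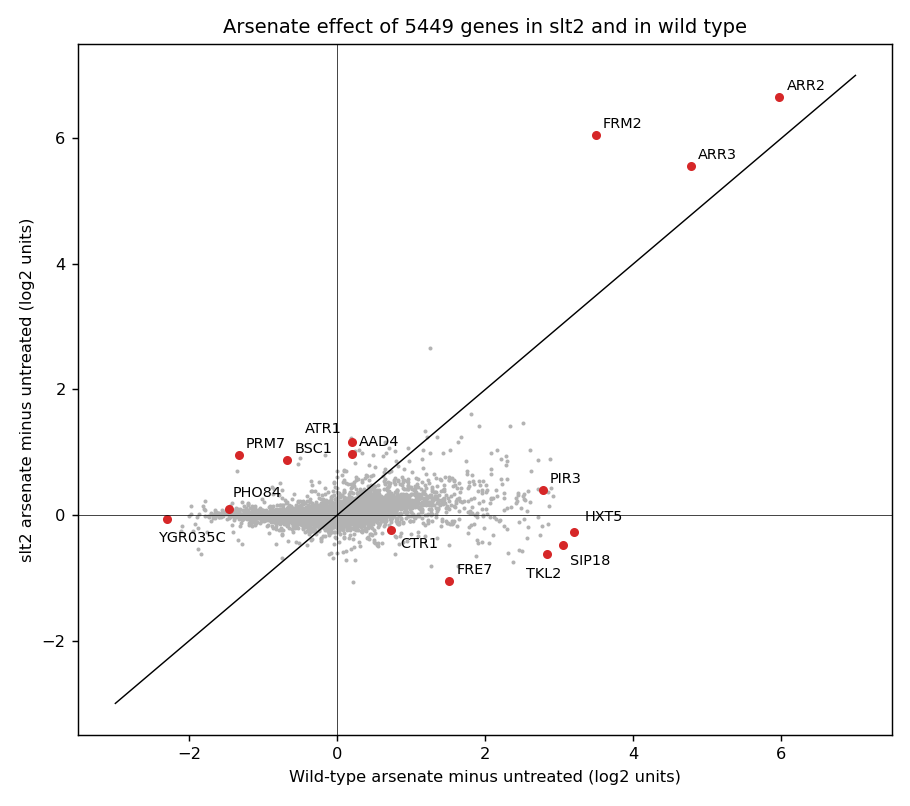
Each point is 1 of 5449 genes, with the mean arsenate effect in wild type on the horizontal axis and in slt2 on the vertical axis, both in log2 units; the diagonal marks equal effects and named genes are in red. Most genes lie close to the horizontal line of no slt2 effect, while ARR2, ARR3 and FRM2 stand far above 0 in both genotypes.

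Counts of calls depended on how the wild-type arsenate arrays were weighted. Without wild-type arsenate array 3, limma called 22 genes, 5 higher (0.0918%) and 17 lower (0.312%). With 1 weight for each array, estimated from the data, it called 376 genes as higher (6.90%) and 295 as lower (5.41%), and all 22 were among these 671. That fit gave wild-type arsenate arrays 1, 2 and 3 the weights 0.021, 1.23 and 0.156, so array 2 carried most of its wild-type arsenate mean. Array 3 was thus absent from the fit with 22 calls and counted little in the fit with 671. Their overlap is therefore not an independent check. With 1 weight per group instead, and without any other single array, 0 genes were called. In the following, the adjusted p from limma over all 12 arrays is 0.711 for the genes whose difference is given, except SLT2 (0.725), SLD7 (0.805), ABM1 (0.779), SLD2 (0.998) and those given with another value. An interval is the 95% interval of the difference. It uses 1 variance per gene pooled over the 4 groups, although their spreads were unequal. It may therefore be too narrow where the wild-type arsenate arrays spread most.

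The gene with the smallest p was PRM7 (YDL039C), which encodes a pheromone-regulated membrane protein. Its signal was 10.78, 10.50 and 11.33 in slt2 arsenate, 9.84, 10.19 and 9.74 in slt2 untreated, 7.48, 8.19 and 8.36 in wild-type arsenate and 9.81, 9.05 and 9.19 in wild-type untreated arrays. All 3 arsenate arrays lay above all 3 untreated arrays in slt2 and below them in wild type, so the directions were opposite on every pair of arrays. The effect was 0.95 in slt2 and -1.34 in wild type, a difference of 2.29 ± 0.42 (SE, interval 1.34 to 3.23, unadjusted p = 0.000309). It stayed between 2.02 and 2.47 when any 1 array was left out and was 2.09 without the 3 wild-type arrays. BSC1 (YDL037C), the measured neighbour of PRM7 in the reference gene order, had effects of 0.87 in slt2 and -0.68 in wild type, a difference of 1.55 ± 0.82 (interval -0.27 to 3.37). Its wild-type ranges overlapped, at 5.61, 4.25 and 5.49 with arsenate and 6.26, 4.35 and 6.75 untreated, while its 3 slt2 arsenate arrays, at 7.84, 7.33 and 8.12, lay above the slt2 untreated ones, at 7.25, 6.70 and 6.73. The wild-type readings of 4.25 and 4.35 lay below 5.47, the highest reading of a deleted gene, and 5.49 and 5.61 lay just above it. The BSC1 difference was 1.90 without the 3 wild-type arrays.

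YGR035C, an open reading frame with no standard gene name in the reference, had the next smallest p. It read 9.03, 9.25 and 9.49 in slt2 arsenate, 9.26, 9.66 and 9.02 in slt2 untreated, 7.80, 7.40 and 9.05 in wild-type arsenate and 10.98, 10.66 and 9.53 in wild-type untreated arrays. The 2 slt2 groups overlapped, while the wild-type arsenate arrays all lay below the wild-type untreated ones. The difference was 2.25 ± 0.64 (interval 0.82 to 3.68) and 1.15 without the 3 wild-type arrays.

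FRE7 and CTR1, both known as genes that yeast expresses when copper is scarce, differed the other way. FRE7 (YOL152W), a member of the metalloreductase family, read 7.25, 7.19 and 6.97 in slt2 arsenate, 8.34, 8.10 and 8.15 in slt2 untreated, 9.68, 10.002 and 7.59 in wild-type arsenate and 6.93, 7.79 and 8.04 in wild-type untreated arrays. All slt2 arsenate arrays were below all slt2 untreated arrays, and 2 of the 3 wild-type arsenate arrays were above all wild-type untreated ones, with array 3 among them. The difference was -2.57 ± 0.76 (interval -4.25 to -0.88), and it was -1.17 without the 3 wild-type arrays. CTR1 (YPR124W), the high-affinity copper transporter of the plasma membrane, had effects of -0.24 in slt2 and 0.73 in wild type, a difference of -0.97 ± 0.32 (interval -1.67 to -0.27), or -0.47 without the 3 wild-type arrays. Its slt2 arsenate arrays read 12.31, 12.29 and 12.23, below the untreated 12.62, 12.44 and 12.50, and wild-type arsenate array 3 at 12.32 again lay among the untreated wild-type arrays of 11.84, 12.19 and 12.36. FRE7 was 1 of the 17 genes called as lower without wild-type arsenate array 3, where its difference was -3.32 (limma adjusted p = 0.0136).

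FRE7 and CTR1 belonged to the iron and copper list. It held 32 measured genes for iron uptake under the factor Aft1, metalloreductases and copper transport. Of these, 7 had a difference above 0 and 25 below, with a median of -0.25 against -0.03 over all 5449 genes, where 2594 (47.6%) lay above 0 and 2855 (52.4%) below. CTR3, a second copper transporter, differed by -0.35 (interval -0.87 to 0.17, reduced fit -0.25), and SMF3, an iron transporter of the vacuole, by -0.34 (interval -0.88 to 0.20, reduced fit -0.010). In the reduced fit 22 of the 32 lay above 0 and 10 below, at a median of 0.09. Over all 5449 genes that fit put 3304 above 0 and 2145 below, at a median of 0.04. The list's direction thus turned as that of all genes did, and the reduced-fit counts of the lists below have this background.

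**Figure D2:**
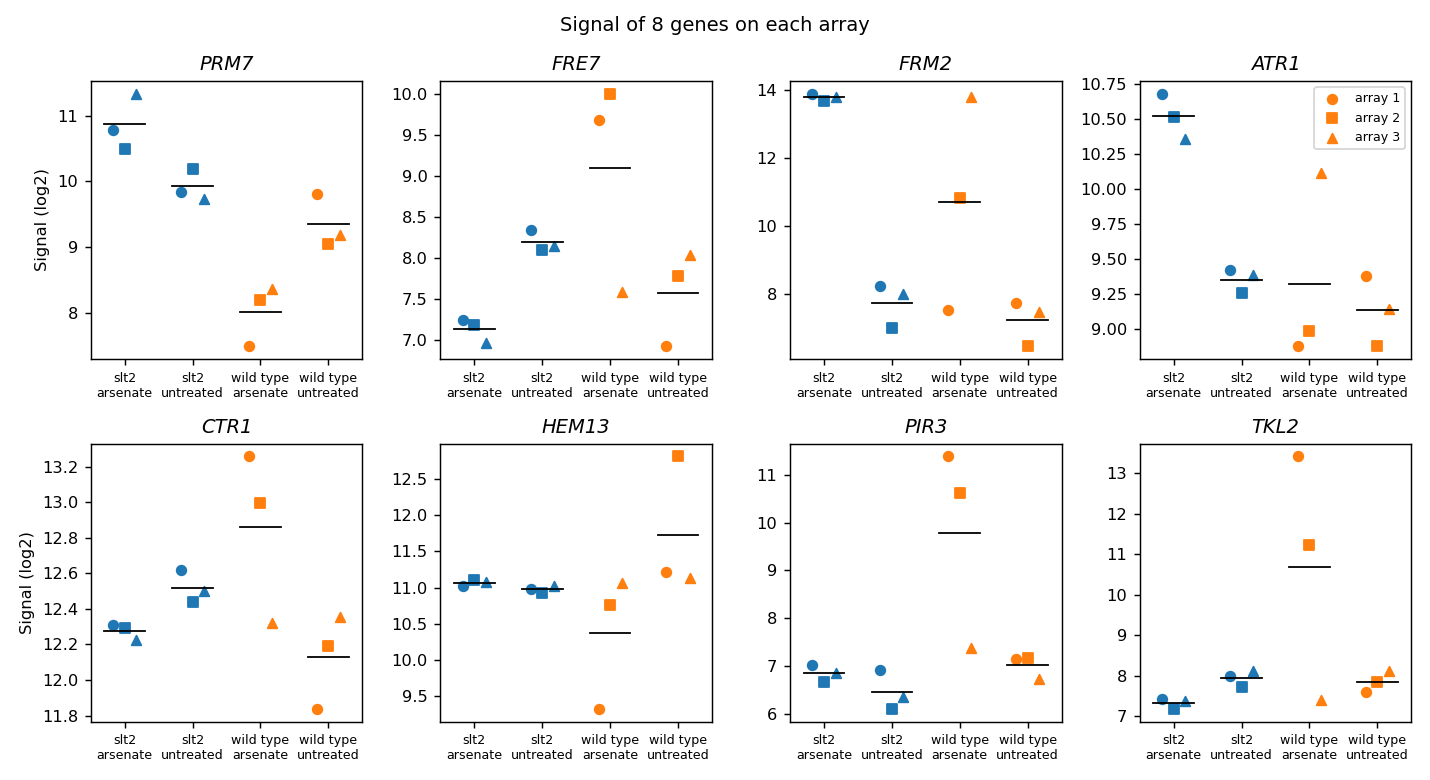
Signal (log2) of 8 genes on each of the 12 arrays, with slt2 groups in blue and wild-type groups in orange, marker shapes for array numbers and a bar at each group mean. PRM7 lies higher with arsenate in slt2 and lower with arsenate in wild type, and wild-type arsenate array 3 lies apart from arrays 1 and 2 for FRE7, CTR1, ATR1, PIR3 and TKL2.

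A count that does not pool the spread of the groups asked for which genes the 9 arsenate minus untreated differences of slt2 lay wholly above or wholly below the 9 of wild type. It found 19 genes above (0.349%) and 12 below (0.220%) of 5449. For 8 of these 31, the directions were opposite in the 2 genotypes on all pairs of arrays. The 10 largest above, with a mean over 5.47, were PRM7, HEM13, HUG1, FCY2, AIM20, AAD4, VAC17, LAC1, ILV6 and YPP1, and the 9 such genes below were FRE7, ATG14, MPO1, CTR1, REE1, YNL146C-A, APD1, MRX4 and GTF1.

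Among the genes above, PRM7, HUG1 and AAD4 had effects of 0.95, 0.96 and 0.98 in slt2, and among those below FRE7 had -1.06. HUG1, a small inhibitor of ribonucleotide reductase known from the DNA damage response, read 7.90, 7.95 and 8.16 in slt2 arsenate and 7.14, 6.79 and 7.20 in slt2 untreated arrays, against 6.37, 7.66 and 7.82 in wild-type arsenate and 7.502, 7.37 and 7.47 in wild-type untreated arrays. Arsenate arrays were higher in slt2, and in wild type array 1 was lower and arrays 2 and 3 higher than the untreated ones, for a difference of 1.12 ± 0.45 (interval 0.11 to 2.12). It was 0.62 without the 3 wild-type arrays. AAD4, a gene of the aryl-alcohol dehydrogenase family, read 10.79, 10.76 and 10.93 in slt2 arsenate, 9.87, 9.76 and 9.91 in slt2 untreated, 10.08, 10.05 and 10.64 in wild-type arsenate and 10.01, 10.29 and 9.88 in wild-type untreated arrays. Its wild-type arsenate array 3 lay above the untreated arrays and the other two did not, and the difference of 0.78 ± 0.25 (interval 0.23 to 1.33) became 0.28 without the 3 wild-type arrays. The AAD family is made of near-identical copies, so AAD4 and AAD10 signals may be shared between members.

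For the remaining genes above, the effect was small in slt2 and below 0 in wild type. HEM13, the coproporphyrinogen oxidase of heme synthesis, read 11.03, 11.10 and 11.08 in slt2 arsenate, 10.98, 10.93 and 11.02 in slt2 untreated, 9.32, 10.76 and 11.06 in wild-type arsenate and 11.22, 12.81 and 11.14 in wild-type untreated arrays. The slt2 arrays were nearly level, and the wild-type span came from arsenate array 1 and untreated array 2. Its difference was 1.43 ± 0.70 (interval -0.12 to 2.99) and 0.21 without the 3 wild-type arrays. The differences of FCY2, a purine and cytosine permease, AIM20, VAC17, the vacuole receptor for the motor Myo2, LAC1, a ceramide synthase, ILV6, the regulatory subunit of acetolactate synthase, and YPP1 ran from 0.88 to 0.42, and from 0.53 to 0.10 in the reduced fit. Each of these 6 had its lowest wild-type arsenate signal on array 1.

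Among the genes below, ATG14, a subunit of the lipid kinase complex that starts autophagy, had a difference of -1.31 ± 0.53 (interval -2.49 to -0.13). It read 6.51, 6.71 and 6.52 in slt2 arsenate, 6.90, 6.57 and 6.52 in slt2 untreated, 9.29, 7.90 and 7.45 in wild-type arsenate and 7.02, 7.08 and 6.85 in wild-type untreated arrays. All 3 wild-type arsenate arrays lay above the untreated ones, and without the 3 wild-type arrays the difference was -0.59. REE1, which acts on the enolase gene ENO1, differed by -0.78 ± 0.24 (interval -1.32 to -0.23) and YNL146C-A, a gene with no standard name, by -0.73 ± 0.22 (interval -1.23 to -0.24). These were -0.57 and -0.48 without the 3 wild-type arrays. MPO1, a fatty acid dioxygenase, differed by -1.05, APD1 by -0.58, MRX4 by -0.55 and GTF1, of the mitochondrial glutamyl-tRNA amidotransferase, by -0.45, each with an interval that held 0. In the reduced fit they differed by -0.36, -0.20, -0.16 and -0.16 in that order.

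**Figure D3:**
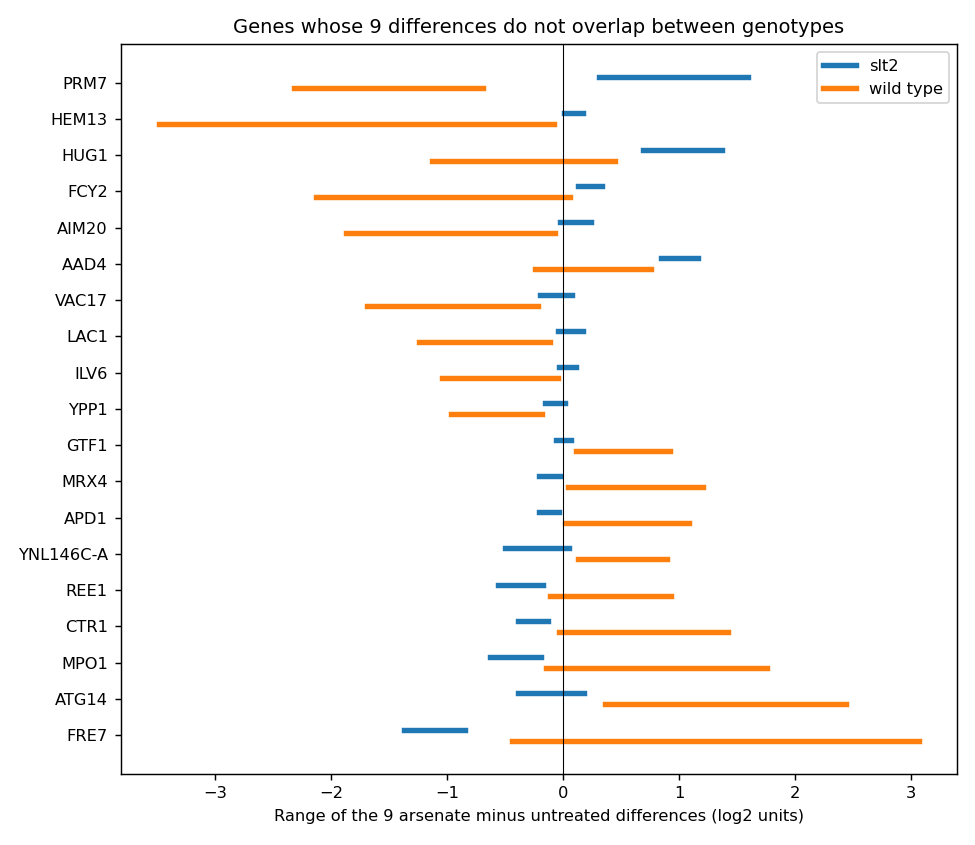
Range of the 9 arsenate minus untreated differences (log2 units) in slt2 (blue, upper line) and wild type (orange, lower line) for 19 of the 28 genes whose ranges do not overlap and whose mean is above 5.47, namely the 10 with the largest differences upward and all 9 downward. The slt2 ranges are short and the wild-type ranges long for most genes, and PRM7 has ranges on opposite sides of 0.

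The cell wall integrity cascade, whose last kinase the mutant lacks, showed little difference as a list. Of 23 measured sensors, exchange factors, kinases, factors and phosphatases, 8 had a difference above 0 and 15 below, with a median of -0.03, as over all genes. Leaving out the 3 wild-type arrays turned this to 13 above 0 and 10 below, with a median of 0.06. That was near the same fit over all genes, with 3304 above 0, 2145 below and a median of 0.04. With all 12 arrays, the 4 members with the smallest p were all below 0. SDP1, the stress-inducible phosphatase of Slt2, read 6.41, 6.46 and 6.16 in slt2 arsenate, 6.202, 5.91 and 6.10 in slt2 untreated, 10.14, 8.10 and 7.22 in wild-type arsenate and 6.53, 6.91 and 6.46 in wild-type untreated arrays. All wild-type arsenate arrays exceeded the untreated ones by amounts that differed widely, and the slt2 signals stayed low. Its difference was -1.58 ± 0.80 (interval -3.37 to 0.21), and -0.44 without the 3 wild-type arrays. ROM1, an exchange factor for Rho1, differed by -0.42 without wild-type arsenate array 1 and, with all arrays, by -1.31 ± 0.85 (interval -3.22 to 0.59, reduced fit -0.17), LRE1, a regulator of the kinase Cbk1 and of wall genes, by -0.34 (interval -0.95 to 0.28, reduced fit -0.10), and PTP2, a phosphatase of Slt2 and Hog1, by -0.41 (interval -1.24 to 0.43). PTP2 was at 0.02 without the 3 wild-type arrays, so its direction turned.

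Wall protein genes known as targets of Slt2 and Rlm1 were likewise split. Of 20 measured, 7 lay above 0 and 13 below, with a median of -0.12, and the same counts held in the reduced fit at a median of -0.04. PIR3, a wall glycoprotein of the PIR family, read 7.03, 6.67 and 6.86 in slt2 arsenate, 6.92, 6.10 and 6.34 in slt2 untreated, 11.38, 10.61 and 7.37 in wild-type arsenate and 7.15, 7.16 and 6.73 in wild-type untreated arrays. Wild-type arsenate arrays 1 and 2 were far above all others, and array 3 was close to the untreated arrays. The difference of -2.37 ± 1.14 (interval -4.91 to 0.17) was -3.58 without wild-type arsenate array 3 (limma adjusted p = 0.0136) and -0.03 without the 3 wild-type arrays.

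The other named targets followed with smaller values. HSP150, another PIR protein, differed by -0.37 (interval -0.93 to 0.19, reduced fit -0.17) and PST1, a wall protein that rises when the wall is damaged, by -0.53 (interval -1.41 to 0.34, reduced fit -0.36). PRM5, a common reporter of Slt2 activity, read 7.53, 7.30 and 7.07 in slt2 arsenate, 7.69, 7.14 and 7.24 in slt2 untreated, 11.16, 9.16 and 9.43 in wild-type arsenate and 9.26, 8.37 and 9.56 in wild-type untreated arrays. Every slt2 array lay below every wild-type array with either treatment, and among wild-type arsenate arrays only array 1 exceeded the untreated range. The PRM5 difference was -0.91 ± 0.68 (interval -2.44 to 0.61), and -0.08 without the 3 wild-type arrays.

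Of 28 measured genes for the making and joining of glucan, chitin and mannoproteins, 18 had a difference above 0 and 10 below, with a median of 0.13 and of -0.02 without the 3 wild-type arrays. KNH1, a homologue of the glucan assembly protein Kre9, read 8.35, 8.42 and 8.33 in slt2 arsenate and 7.98, 7.60 and 7.87 in slt2 untreated arrays, against 8.55, 8.08 and 8.39 in wild-type arsenate and 8.54, 7.99 and 8.24 in wild-type untreated arrays. Only in slt2 did the arsenate arrays lie wholly above the untreated ones, and the difference was 0.47 ± 0.25 (interval -0.09 to 1.02) and 0.55 without the 3 wild-type arrays. UTR2, an enzyme that links chitin to glucan, differed by 1.61 ± 1.09 (interval -0.81 to 4.03), with wild-type arsenate arrays at 9.06, 12.01 and 13.07 and wild-type untreated arrays at 13.10, 12.93 and 13.22. It was at -0.006 without the 3 wild-type arrays. CHS2, the chitin synthase of the septum, differed by 0.23 (interval -0.14 to 0.61, reduced fit 0.20) and EXG2, an exoglucanase, by 0.39 (interval -0.34 to 1.11), which was -0.04 without the 3 wild-type arrays.

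Of the genes for handling arsenic, ARR2 and ARR3 had large effects in both genotypes, and the differences named here had intervals that held 0. ARR2, the arsenate reductase, read 12.37, 12.23 and 12.38 in slt2 arsenate, 6.18, 4.95 and 5.91 in slt2 untreated, 10.88, 10.63 and 12.24 in wild-type arsenate and 5.94, 4.74 and 5.15 in wild-type untreated arrays. Every arsenate array exceeded every untreated array in both genotypes, and wild-type arsenate arrays 1 and 2 lay below the slt2 arsenate arrays. Its effects were 6.65 in slt2 and 5.97 in wild type, a difference of 0.68 ± 0.66 (interval -0.79 to 2.14), or -0.05 without the 3 wild-type arrays. ARR3, the arsenite exporter, read 11.85, 11.82 and 12.09 in slt2 arsenate, 6.56, 6.06 and 6.47 in slt2 untreated, 11.43, 8.91 and 11.89 in wild-type arsenate and 6.70, 5.04 and 6.18 in wild-type untreated arrays. Wild-type arsenate array 2 stood below the other arsenate arrays, and the difference was 0.79 ± 0.96 (interval -1.36 to 2.93, limma adjusted p = 0.729). It was 0.10 without the 3 wild-type arrays and -0.13 without wild-type arsenate array 2 alone.

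ARR1, the regulator of both, differed by -0.04 ± 0.35 (interval -0.83 to 0.75, limma adjusted p = 0.962, reduced fit 0.053), and by 0.24 without wild-type arsenate array 1. YCF1, the vacuolar pump, differed by 0.15 ± 0.18 (interval -0.24 to 0.55, limma adjusted p = 0.724, reduced fit 0.043), and FPS1, the glycerol channel that also passes arsenite, by 0.34 ± 0.18 (interval -0.06 to 0.74, reduced fit 0.19). RGC1, a regulator of Fps1, differed by -0.58 (interval -1.61 to 0.45, reduced fit -0.046). Of the 10 genes of the arsenic list, 7 lay above 0 and 3 below, with a median of 0.13, against 0.05 without the 3 wild-type arrays.

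FRM2 and ATR1 differed upward. FRM2, a nitroreductase-like gene, had the largest positive difference of the genes above the level of the deleted ones. It read 13.90, 13.70 and 13.81 in slt2 arsenate, 8.25, 7.01 and 8.01 in slt2 untreated, 7.55, 10.84 and 13.80 in wild-type arsenate and 7.75, 6.47 and 7.48 in wild-type untreated arrays. Wild-type arsenate array 3 matched the slt2 arsenate arrays, array 2 lay between, and array 1 lay within the untreated range, although ARR2 was high on array 1. The FRM2 difference was 2.55 ± 1.69 (interval -1.22 to 6.32), and -0.13 without the 3 wild-type arrays. ATR1, a membrane exporter of several drugs, read 10.68, 10.52 and 10.36 in slt2 arsenate, 9.42, 9.26 and 9.39 in slt2 untreated, 8.88, 8.99 and 10.11 in wild-type arsenate and 9.38, 8.88 and 9.14 in wild-type untreated arrays. It followed the same order of wild-type arrays, with a difference of 0.97 ± 0.41 (interval 0.06 to 1.88) that was 1.37 without wild-type arsenate array 3 (limma adjusted p = 0.0459) and 0.32 without the 3 wild-type arrays.

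Over 44 measured genes of oxidative defence, glutathione and detoxification, 12 lay above 0 and 32 below, with a median of -0.29, or -0.02 without the 3 wild-type arrays. CTT1, the cytosolic catalase, read 8.77, 8.93 and 8.73 in slt2 arsenate, 9.31, 9.37 and 9.48 in slt2 untreated, 13.79, 12.50 and 8.96 in wild-type arsenate and 7.81, 10.50 and 9.44 in wild-type untreated arrays. The slt2 arsenate arrays were all below the slt2 untreated ones, and wild-type arsenate array 3 lay within the wild-type untreated range. Its difference was -3.08 ± 1.48 (interval -6.37 to 0.22) and -0.91 without the 3 wild-type arrays. AAD10 differed by -1.48 ± 0.76 (interval -3.18 to 0.21), by -2.29 without wild-type arsenate array 3 (limma adjusted p = 0.0136) and by 0.03 without the 3 wild-type arrays.

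Sulfate assimilation and methionine synthesis lay above 0 for 27 of 32 measured genes and below for 5, with a median of 0.40 and of 0.08 without the 3 wild-type arrays. MET10, a subunit of sulfite reductase, read 9.95, 10.10 and 10.25 in slt2 arsenate, 9.26, 9.06 and 9.03 in slt2 untreated, 9.12, 9.41 and 9.95 in wild-type arsenate and 9.33, 8.89 and 9.26 in wild-type untreated arrays. All slt2 arsenate arrays exceeded the untreated ones, while wild-type arsenate array 1 lay within the untreated range. Its difference was 0.66 ± 0.29 (interval -0.002 to 1.31) and 0.34 without the 3 wild-type arrays. MUP3, a methionine permease, had 9.86, 10.07 and 8.001 in slt2 arsenate and 8.09, 8.02 and 8.15 in slt2 untreated arrays, so its difference of 1.04 ± 0.61 (interval -0.33 to 2.41, reduced fit 1.06) rested on 2 of 3 slt2 arsenate arrays. MET31, a transcription factor of the pathway, differed by 0.51 (interval -0.17 to 1.20, reduced fit 0.15) and SUL2, a sulfate permease, by 0.29 (interval -0.12 to 0.71, reduced fit 0.16). SAM1, which makes S-adenosylmethionine, differed by 2.13 ± 1.55 (interval -1.33 to 5.58), with wild-type arsenate arrays at 7.70, 12.28 and 13.28 against wild-type untreated arrays at 13.29, 12.71 and 13.20, and by 0.11 without the 3 wild-type arrays.

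In the phosphate list, 17 of 23 measured genes lay above 0 and 6 below, with a median of 0.33, or 0.11 without the 3 wild-type arrays. PHO5, the secreted acid phosphatase that yeast makes when phosphate is scarce, read 11.36, 11.25 and 11.31 in slt2 arsenate, 10.37, 10.37 and 10.45 in slt2 untreated, 9.43, 8.95 and 10.50 in wild-type arsenate and 10.96, 9.28 and 10.16 in wild-type untreated arrays. The slt2 arsenate arrays lay well above the slt2 untreated ones and the wild-type groups overlapped, for a difference of 1.42 ± 0.61 (interval 0.06 to 2.78) and of 0.97 without the 3 wild-type arrays. PHO84, the high-affinity phosphate transporter, read 13.88, 13.76 and 13.84 in slt2 arsenate, 13.85, 13.66 and 13.69 in slt2 untreated, 9.55, 10.99 and 13.37 in wild-type arsenate and 13.44, 11.34 and 13.50 in wild-type untreated arrays. It was level in slt2 and low on the 3 wild-type arrays, with a difference of 1.55 ± 1.19 (interval -1.10 to 4.20) and of 0.20 without them. PHO90, a low-affinity transporter, differed by 0.83 (interval -0.30 to 1.97, reduced fit 0.24), PHM8, a nucleotide phosphatase, by -1.02 (interval -2.33 to 0.28, reduced fit -0.057) and PHM7 by -1.91 (interval -4.61 to 0.79), and PHM7 turned to 0.02 without the 3 wild-type arrays.

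Genes of the general stress response, which the factors Msn2 and Msn4 switch on, lay low. All 44 measured genes of this list lay below 0, with a median of -1.60, and 33 of them were at -1 or lower. The list's median on each arsenate array, relative to the untreated mean of its genotype, was 0.10, 0.44 and -0.02 on the slt2 arrays and 3.71, 1.93 and -0.07 on the wild-type arrays. Wild-type array 3 thus lay with the slt2 arrays, and the other two far above. TKL2, a minor transketolase, read 7.41, 7.17 and 7.36 in slt2 arsenate, 7.98, 7.71 and 8.11 in slt2 untreated, 13.42, 11.24 and 7.39 in wild-type arsenate and 7.58, 7.84 and 8.11 in wild-type untreated arrays. The slt2 arsenate arrays and wild-type arsenate array 3 all lay below the untreated arrays of their genotype. The TKL2 difference of -3.46 ± 1.59 (interval -7.01 to 0.09) was -5.11 without wild-type arsenate array 3 (limma adjusted p = 0.0168) and -0.17 without the 3 wild-type arrays.

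GND2, a minor 6-phosphogluconate dehydrogenase, differed by -2.91 ± 1.45 (interval -6.13 to 0.32, reduced fit -0.094) and ALD3, an aldehyde dehydrogenase, by -2.94 ± 1.497 (interval -6.28 to 0.39, reduced fit -0.15). The largest negative differences of all genes above the level of the deleted ones were those of SIP18, a protein of the desiccation response, at -3.53 ± 2.04 (interval -8.06 to 1.01, reduced fit 0.19), HXT5, a hexose transporter of slow growth, at -3.47 (reduced fit 0.63), TKL2, FMP16, a mitochondrial protein of unknown role, at -3.12 (reduced fit -0.049), and CTT1. SIP18 was at 14.01, 11.34 and 6.46 in wild-type arsenate, against 7.33, 8.40 and 6.94 in wild-type untreated arrays, while slt2 arsenate arrays read 6.80, 6.499 and 6.38 and slt2 untreated arrays 7.31, 6.58 and 7.22. Without the 3 wild-type arrays the general stress list kept 31 of 44 genes below 0, with a median of -0.22 against 0.04 over all genes.

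Genes that glucose represses, for gluconeogenesis, fat oxidation and other carbon sources, differed on 1 array above all. Of 33 measured, 2 lay above 0 and 31 below, with a median of -1.64. The reduced fit turned this to 23 above and 10 below, at a median of 0.14. Their median was 0.07, 0.02 and 0.06 on the slt2 arsenate arrays and 4.59, 0.24 and -0.10 on the wild-type arsenate arrays. Wild-type array 1 alone stood apart, and without it the median difference was -0.03. HXT5 read 6.65, 6.33 and 6.79 in slt2 arsenate, 7.01, 6.54 and 7.05 in slt2 untreated, 13.55, 10.56 and 6.05 in wild-type arsenate and 7.10, 6.65 and 6.80 in wild-type untreated arrays, and its difference was 0.63 without the 3 wild-type arrays. POT1, the thiolase of peroxisomal fat oxidation, differed by -2.99 ± 1.88 (interval -7.18 to 1.21, reduced fit -0.17), with 12.84 on wild-type arsenate array 1 and 7.37 and 5.98 on the other two, against 5.95, 5.76 and 5.95 in wild-type untreated arrays.

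Respiration and storage genes followed the same arrays. All 37 measured genes of the respiratory chain and ATP synthase and all 20 of the tricarboxylic acid cycle lay below 0, with medians of -0.52 in both lists. Trehalose and glycogen genes lay above 0 for 1 and below for 19 of 20 (median -1.07), and autophagy genes above 0 for 3 and below for 31 of 34 (median -0.58). Without the 3 wild-type arrays the medians were 0.19, 0.09, -0.09 and 0.04 in that order of lists, and 34 of the 37 respiratory genes lay above 0. NDE2, a mitochondrial NADH dehydrogenase, differed by -3.01 ± 1.73 (interval -6.87 to 0.85, reduced fit -0.12) and DLD1, the D-lactate dehydrogenase, by -0.96 (interval -2.28 to 0.36, reduced fit -0.071). PYC1, a pyruvate carboxylase, differed by -0.90 (interval -2.29 to 0.49, reduced fit -0.34) and ACO1, aconitase, by -0.46 (interval -1.20 to 0.28, reduced fit -0.093). PIG1, thought to target a phosphatase to glycogen synthase, differed by -0.77 (interval -1.67 to 0.12, reduced fit -0.041) and NTH2, a trehalase, by -0.88 (interval -1.92 to 0.16, reduced fit -0.15). ATG40, a receptor for autophagy of the endoplasmic reticulum, differed by -1.23 (interval -2.90 to 0.44, reduced fit -0.26). In glycolysis and fermentation 12 of 21 genes lay above 0, with a median of 0.01, or -0.007 in the reduced fit. The hexose transporters HXT4 and HXT2 there differed by 2.05 (interval -1.07 to 5.16, reduced fit 1.36) and 1.92 (interval -1.03 to 4.87, reduced fit 0.63).

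**Figure D4:**
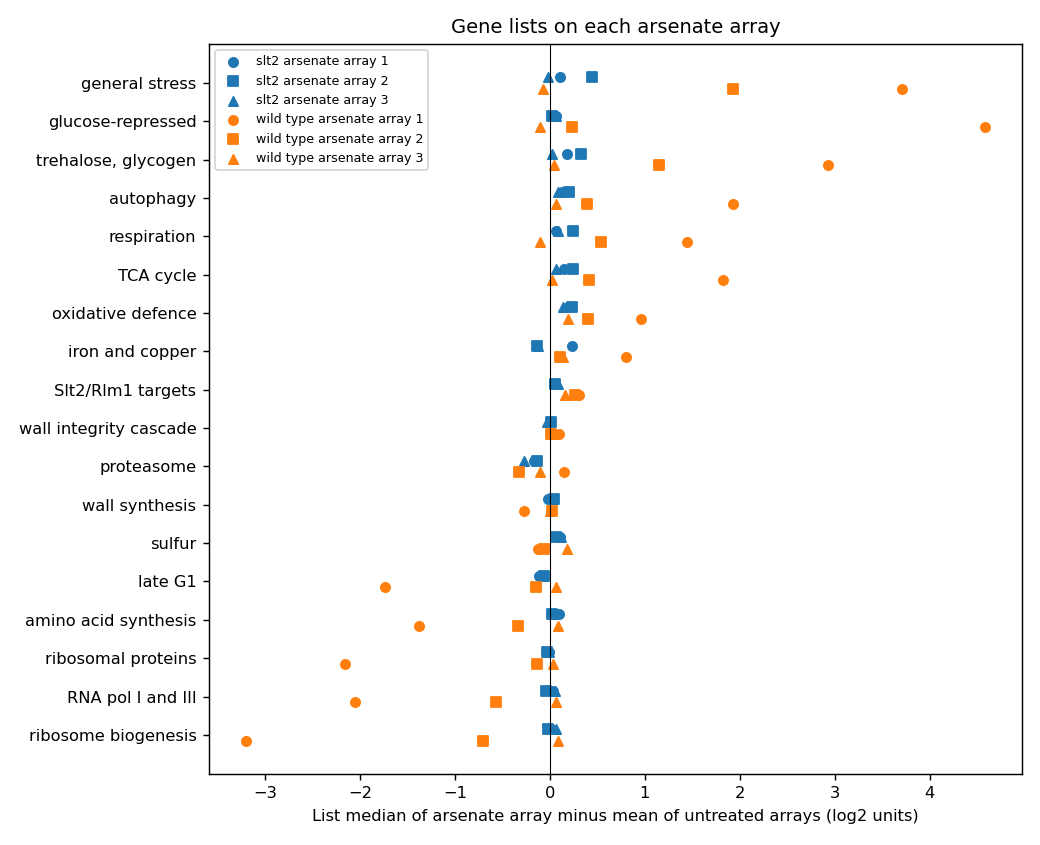
Median over the genes of each list of the arsenate signal minus the untreated mean of the same genotype (log2 units), for the 3 slt2 arsenate arrays (blue) and the 3 wild-type arsenate arrays (orange). In most lists the slt2 arrays and wild-type array 3 lie near 0, wild-type array 1 lies farthest out (general stress 3.71, ribosome biogenesis -3.20) and array 2 between. Some lists with small medians break this order. Among the wild-type arrays, array 2 lies farthest out for the proteasome (-0.325) and array 3 for sulfur (0.184).

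Genes for making ribosomes lay on the other side. All 122 measured ribosome biogenesis genes had a difference above 0, with a median of 1.28, and 96 of them were at 1 or more. The list's median on the arsenate arrays was 0.01, -0.02 and 0.06 in slt2 and -3.20, -0.70 and 0.09 in wild type. Wild-type array 1 stood farthest from the slt2 arrays, array 2 lay between and array 3 lay with slt2. FCF1, which helps cut the pre-ribosomal RNA, read 11.67, 11.72 and 11.69 in slt2 arsenate, 11.66, 11.64 and 11.67 in slt2 untreated, 10.32, 11.32 and 11.72 in wild-type arsenate and 11.94, 11.59 and 11.78 in wild-type untreated arrays. It was level in slt2, with a difference of 0.69 ± 0.40 (interval -0.21 to 1.58, reduced fit 0.18), and TMA16, a protein bound to early ribosomes, differed by 0.84 (interval -0.27 to 1.94, reduced fit 0.29). Without the 3 wild-type arrays 117 of 122 genes lay above 0, at a median of 0.18.

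Of the 127 measured ribosomal protein genes, 126 lay above 0 and 1 below, with a median of 0.74 that was -0.02 without the 3 wild-type arrays. Many of these genes have a near-identical copy, so their signals may be shared. RPL41A differed by 1.001 (interval -0.17 to 2.17, reduced fit 0.056) and RPS1A by 1.04 (interval -0.61 to 2.69, reduced fit 0.054). All 29 subunits of RNA polymerases I and III lay above 0, at a median of 0.85, and of 0.11 without the 3 wild-type arrays. Among them the polymerase III subunits RPC31 and RET1 differed by 1.10 (interval -0.49 to 2.70, reduced fit 0.15) and 1.11 (interval -0.53 to 2.74, reduced fit 0.12).

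Amino acid synthesis lay above 0 for 45 of 49 genes and below for 4, at a median of 0.61, or 0.02 without the 3 wild-type arrays. BAT1, the mitochondrial branched-chain aminotransferase, read 13.31, 13.35 and 13.32 in slt2 arsenate, 13.40, 13.36 and 13.32 in slt2 untreated, 11.14, 12.43 and 13.11 in wild-type arsenate and 13.28, 13.19 and 13.29 in wild-type untreated arrays. The slt2 groups overlapped and all wild-type arsenate arrays lay below the untreated ones, for a difference of 0.99 ± 0.54 (interval -0.20 to 2.19, reduced fit 0.14). LYS4, homoaconitase of lysine synthesis, differed by 1.01 (interval -0.23 to 2.25, reduced fit 0.15). Late G1 genes, which SBF and MBF control, lay above 0 for 31 of 34 (median 0.51), but for 5 of 34 without the 3 wild-type arrays (median -0.13). GIC1, an effector of Cdc42, differed by 0.56 (interval -0.09 to 1.20, reduced fit 0.27) and DUN1, a checkpoint kinase, by 0.36 (interval -0.23 to 0.96), and DUN1 turned to -0.01 without those arrays. Ergosterol genes lay above 0 for 21 of 26 (median 0.32), but for 9 of 26 in the reduced fit (median -0.02), with the regulator UPC2 at 0.73 (interval 0.008 to 1.45, reduced fit 0.45) and ERG11 at 0.56 (interval -0.24 to 1.36, reduced fit 0.10).

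Chaperone, protein turnover, secretion and osmotic genes were counted in the same way. Chaperone genes under Hsf1 lay above 0 for 10 of 34 (median -0.27, reduced fit -0.02), with HSP42, a small heat shock protein, at -1.98 (interval -4.36 to 0.41, reduced fit -0.88) and HSP82, an Hsp90, at -1.01 (interval -2.28 to 0.26, reduced fit -0.15). Proteasome genes lay above 0 for 5 of 33 (median -0.09, reduced fit -0.04), with the subunit RPT2 at -0.24 (interval -0.63 to 0.15, reduced fit -0.19) and the activator RPN4 at -0.50 (interval -1.36 to 0.36, reduced fit -0.22). The unfolded protein response list had 12 of 28 above 0 (median -0.03) and 6 of 28 in the reduced fit (median -0.09), with the disulfide isomerase MPD1 at -0.45 (interval -0.91 to 0.02, reduced fit -0.25) and the translocation protein SEC63 at 0.75 (interval -0.26 to 1.75, reduced fit 0.10). The osmotic list had 10 of 24 above 0 (median -0.14, reduced fit -0.07). The smallest p there were those of CTT1 and of GRE3, an aldose reductase, at -1.04 (interval -2.30 to 0.22, reduced fit -0.36).

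Mating genes were set against the labelled mating type. Of 5 genes specific to alpha cells, HMLALPHA1 read 4.11 to 4.80 over the 12 arrays, MF(ALPHA)1 5.05 to 6.19 and MF(ALPHA)2 5.68 to 6.59, while STE3 read 6.99 to 8.45 and SAG1 8.59 to 9.46. Of these, HMLALPHA1 alone stayed below 5.47, the highest reading of a deleted gene, on all 12 arrays. AGA2, specific to a cells, read 10.56 to 12.03. Of the 7 genes specific to a cells, 2 had a difference above 0 and 5 below (median -0.16), and without the 3 wild-type arrays 0 lay above and 7 below (median -0.52). AGA2, a subunit of the agglutinin of a cells, read 10.81, 10.80 and 10.88 in slt2 arsenate, 11.28, 11.29 and 11.45 in slt2 untreated, 11.19, 12.03 and 10.92 in wild-type arsenate and 10.56, 11.70 and 11.22 in wild-type untreated arrays. All slt2 arsenate arrays lay below the untreated ones, and the wild-type groups overlapped, for a difference of -0.73 ± 0.44 (interval -1.71 to 0.26) and of -0.54 without the 3 wild-type arrays. ASG7, an a-cell protein that acts on pheromone signalling, differed by -1.30 (interval -2.80 to 0.21, reduced fit -0.55). The 26 pheromone response genes had 9 above 0 and 17 below (median -0.17, reduced fit -0.06), with PRM1, which acts in cell fusion, at -0.76 (interval -1.51 to -0.02, reduced fit -0.26) and PRM2 at -0.94 (interval -2.05 to 0.17, reduced fit -0.035). The 5 measured alpha-cell genes had 1 above and 4 below, or 3 above and 2 below in the reduced fit, with STE3 at -0.71 (interval -1.53 to 0.11, reduced fit -0.21) and MF(ALPHA)1 at -0.37 (interval -0.91 to 0.16, reduced fit -0.073). Meiosis and sporulation genes lay above 0 for 7 of 35 (median -0.26, and 0.21 without the 3 wild-type arrays), with the spore wall gene SPS100 at -1.82 (interval -3.73 to 0.08, reduced fit -0.074) and DIT2 at -0.61 (interval -1.30 to 0.08, reduced fit -0.32). DIT2 read 4.28 to 5.78, and only wild-type arsenate array 1 was above 5.47.

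The calls with 1 weight per array were also counted by list. Their wild-type arsenate mean rests mostly on array 2, which had the largest excess of 3′ over 5′ probe sets (1.79). The part of its RNA quality in these calls was not tested. Among 44 general stress genes 29 were called as lower and 0 as higher, and among 122 ribosome biogenesis genes 62 were called as higher and 0 as lower, against 6.90% called as higher and 5.41% as lower over all genes. Trehalose and glycogen genes had 13 of 20 called as lower and 1 as higher, and amino acid synthesis 13 of 49 as higher and 0 as lower. Ribosomal protein genes had 1 of 127 called as higher and proteasome genes 0 of 33 in either direction. In that fit the cascade list had 1 called as higher and 1, SDP1, as lower (-1.25, limma adjusted p = 0.0301), and the Slt2 and Rlm1 targets had 0 higher and 3 lower of 20. PRM7 was among the genes called as higher, at 2.13 (limma adjusted p = 0.0301), with BSC1 at 2.90 (limma adjusted p = 0.0325).

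**Figure D5:**
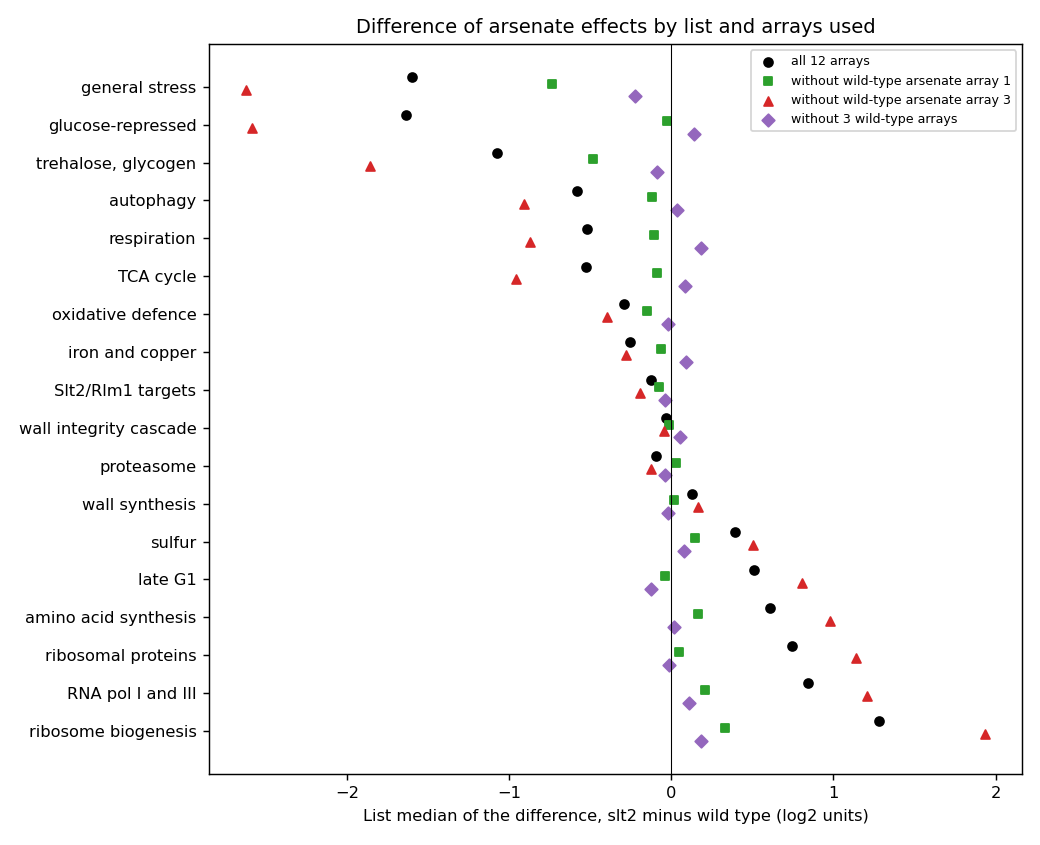
Median difference of arsenate effects, slt2 minus wild type (log2 units), of 18 gene lists with all 12 arrays (black), without wild-type arsenate array 1 (green), without wild-type arsenate array 3 (red) and without the 3 wild-type arrays (purple). The general stress median of -1.60 and the ribosome biogenesis median of 1.28 both lie nearer 0 without array 1 and farther out without array 3.

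Among the fits with fewer arrays, limma again called 0 genes without the 3 wild-type arrays, with 110 at an unadjusted p under 0.05. In that fit a difference of at least 1 log2 unit was found for 15 genes upward (0.275%) and 5 downward (0.0918%), and the differences did not overlap for 475 genes upward (8.72%) and 157 downward (2.88%), a count that grows as arrays are left out. The smallest p in this fit belonged upward to YNL194C, at 0.84, SLD7, PRM7, BSC1 and ABM1, and downward to YEL075C, at -0.69, YGL258W-A, SLD2, AIM26 and ATG14, each with a limma adjusted p of 0.999. YNL194C, a protein of the plasma membrane domain called the eisosome, lay at -2.27 with all arrays, where wild-type arsenate array 1 read 13.28 and arrays 2 and 3 read 8.05 and 6.37. YEL075C read 3.501 to 4.405, below 5.47, the highest reading of a deleted gene, on every array. ABM1 was above that level only on wild-type arsenate array 1 (6.70) and wild-type untreated array 1 (5.494). The 5 genes called as higher without wild-type arsenate array 3 were CCS1, the copper chaperone of superoxide dismutase, ATR1, OAC1, a mitochondrial oxaloacetate carrier, FCY21, a permease-like gene, and YDL241W, of which CCS1, OAC1, FCY21 and YDL241W were chosen after their values were seen. With all arrays they had differences of 0.77, 0.97, 1.17, 1.14 and 1.40 in that order, and of 0.008, 0.32, 0.16, -0.08 and 0.12 in the reduced fit. CCS1 read 12.09, 12.13 and 12.06 in slt2 arsenate, 11.64, 11.47 and 11.60 in slt2 untreated, 10.83, 11.24 and 12.22 in wild-type arsenate and 11.69, 11.61 and 11.72 in wild-type untreated arrays. Its wild-type arsenate array 3 lay above the wild-type untreated arrays, like the slt2 arsenate arrays, and arrays 1 and 2 lay below them.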

How the data were processed

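The deposited values are log2 signals per probe set, made by the authors by RMA. The software was Affymetrix Expression Console (submitters' processing notes). Versions and settings, and whether the 12 arrays were summarised together, are not given by the sources used here. Of 5814 probe sets, 98 were controls, 5498 carried 1 gene symbol and 316 none. For 47 genes with several probe sets the one with the highest mean was kept, leaving 5449 genes. A model of 4 group means was fitted with limma 3.58.1 in R 4.3.3 (lmFit, eBayes, defaults, no replicate term), with the difference of arsenate effects as contrast, Benjamini-Hochberg adjustment over the 5449 genes and a threshold of 0.05. It was run on simulated data with the same SD in all 4 groups, which does not check the unequal spread of the real groups. Genes were named by a rule. It took the 5 smallest p, the 10 largest non-overlapping differences each way above the level of the deleted genes, and the 5 largest differences each way. It also took ARR1, ARR2, ARR3, YCF1, FPS1 and PHO84, and the 5 smallest p each way without the 3 wild-type arrays. From each list it took up to 4 members with the smallest p. The text gives 4 for the cascade, its targets, wall synthesis, arsenic, oxidative defence, sulfur, phosphate, iron and copper, and general stress. For the other lists with named members it gives 2. The members, lists and arrays left out were chosen with earlier results of these data known. Weights per array used limma's gene-by-gene method, chosen after the default method did not converge. Alternatives are given in the closing section. The precision is limited by 3 arrays per group. Tables were joined in Python 3.11.15 and plotted with matplotlib 3.10.9.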

Additional observations from a re-analysis of the deposited data

Results flagged for a closer look

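In 8 genes every arsenate minus untreated difference of slt2 ran opposite to every one of wild type. The difference of arsenate effects was tested for each with limma and did not pass, with an adjusted p of 0.711 in all 8. Of these, PRM7 (2.29), HEM13 (1.43), DAL81 (0.29) and TUB1 (0.24) had higher arsenate signals in slt2 and lower ones in wild type. DAL81, an activator of genes for nitrogen use, and TUB1, an alpha-tubulin, had changes of 0.10 and 0.045 in slt2 and of -0.19 and -0.19 in wild type. AIM26 (-0.75), APD1 (-0.58), MRX4 (-0.55) and YGL258W-A (-1.56) were lower with arsenate in slt2 and higher in wild type. AIM26 and YGL258W-A had mean signals under 5.47, the highest reading of a deleted gene, and YGL258W-A read 8.04 on wild-type arsenate array 1 and at most 4.999 on the other 11 arrays. Without wild-type arsenate arrays 1 and 2 and wild-type untreated array 2, the difference was 2.09 for PRM7, 0.21 for HEM13, 0.21 for DAL81 and 0.09 for TUB1, and it was -0.52 for AIM26, -0.20 for APD1, -0.16 for MRX4 and -0.41 for YGL258W-A.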

How the results depend on the processing

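Of 112 genes whose difference was followed through the alternatives, 75 kept their direction under all 24 alternatives, and PRM7 was among them. Some alternatives could not turn a direction. Replicate blocks, 1 weight per group and a changed variance prior leave the differences themselves as they were, and so does leaving out dim genes. The 112 were largely named for a small p or a large difference in these data, so 75 gives no share for all genes. The number of genes called was 0 to 22 when 1 array was left out, 671 with 1 weight per array and 0 under the other alternatives. The number of non-overlapping genes, 31, was 43 to 1358 when 1 array was left out (1358 without wild-type arsenate array 3, 302 without wild-type untreated array 2), 56 after quantile normalization, 632 without the 3 wild-type arrays and 213 without wild-type arsenate arrays 1 and 2. The genes with an unadjusted p under 0.05, 28, were 1802 with 1 weight per array, 203 with 1 weight per group, 60 with RNA quality as a covariate, 110 without the 3 wild-type arrays and 12 to 1358 when 1 array was left out (1358 without wild-type arsenate array 3). With the replicate number as a block, 0 genes were called, and 34 had an unadjusted p under 0.05, or 68 with the block within each genotype. Same-numbered arrays deviated together at 0.39, 0.05 and 0.23 in slt2 and 0.04, 0.35 and 0.47 in wild type, wild-type arsenate array 1 correlated best with untreated array 2, and the samples share only a number. Directions turned with 1 weight per array for SLT2 (0.001), ABM1 (0.015), SLD2 (0.103), ARR1 (0.53), PRM5 (0.18), EXG2 (-0.015), HXT4 (-0.68), PYC1 (0.16) and RPN4 (0.20). They turned without the 3 wild-type arrays for ABM1 (0.564), ARR1 (0.053), ARR2 (-0.051), PTP2 (0.024), UTR2 (-0.006), EXG2 (-0.041), AAD10 (0.027), PHM7 (0.019), HXT5 (0.63), DUN1 (-0.013), YNL194C (0.84), FRM2 (-0.13), SIP18 (0.19) and FCY21 (-0.077). They turned without wild-type arsenate arrays 1 and 2 for ABM1 (0.444), ARR2 (-0.32), ARR3 (-0.36), YCF1 (-0.007), PHO84 (-0.51), RGC1 (0.044), PIR3 (0.043), UTR2 (-0.084), AAD10 (0.13), PHM8 (0.071), PHM7 (0.30), GND2 (0.15), ALD3 (0.16), HXT5 (0.53), HXT2 (-0.25), NDE2 (0.12), RPS1A (-0.052), RPC31 (-0.11), RET1 (-0.052), DUN1 (-0.039), YNL194C (0.60), FRM2 (-0.52), SAM1 (-0.068), SIP18 (0.62), FMP16 (0.33), CCS1 (-0.022) and FCY21 (-0.15). Leaving out 1 array moved ARR1 between -0.34 and 0.24, ARR3 between -0.13 and 1.36, SLD7 between -0.098 and 0.59, ABM1 between -0.713 and 0.177 and SLD2 between -0.188 and 0.27, and quantile normalization put SLD2 at 0.116. The cause was not tested beyond the arrays left out. Wild-type arsenate signals spread over several log2 units for many genes, which limits what 3 arrays can show of the difference, and no array was repeated.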
